A study of Mus musculus with 2 samples.

Results

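The genes described are complement components and the receptors for the complement fragments called anaphylatoxins, in osteoclasts and macrophages grown from mouse bone marrow. They were chosen by name: every probe set whose only gene symbol in the platform annotation was C1qa, C1qb, C1qc, C3, C3ar1, C5ar1, Cfb or Cfp. Of these 8 genes, 7 were found, with 13 probe sets, among 18193 genes that a single-symbol probe set stands for. C3, the central component, had none and is not analysed here. Osteoclasts, the bone-resorbing cells, came from cultures given M-CSF (macrophage colony-stimulating factor) plus RANKL, the TNF family cytokine of osteoclast differentiation, and macrophages came from cultures given M-CSF alone. Per the labels, both were C57/Black6 cells from marrow of mice aged 8 weeks, first grown for 3 days with M-CSF and taken as adherent progenitors, then cultured for 6 days and profiled on 1 Affymetrix array per cell type. Whether both arrays came from the same animals, and how many animals were used, is not given in the labels.

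Complement is a chain of plasma proteins that tags microbes and dying cells for uptake. C1q, the recognition protein of the classical pathway, is built from A, B and C chains, and macrophages are a main source of it. Cleavage along the alternative pathway, which needs factor B and is held active by properdin, and along the classical and lectin pathways releases C3a and C5a, the anaphylatoxins, which act on receptors of myeloid cells.

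In these arrays the genes of all 3 C1q chains and of both anaphylatoxin receptors were lower in osteoclasts, properdin was close to the general level of change, and factor B was dim and somewhat higher. The deposited values are linear intensities. Signals of the osteoclast array were lower in general, with a median log2 difference, osteoclasts minus macrophages, of -0.43 over the 23708 probe sets measured in both arrays. Differences below are log2 of osteoclasts over macrophages relative to this shift, unless given as deposited. A signal counted as measured above a floor of 14.4 in the osteoclast array and 17.0 in the macrophage array, the 40th percentile of all probe sets. Neither cell type has a replicate array, so there is no test, and precision is limited by having 1 array of each. The one error that can be had from the files is how far the differences of a gene's own probe sets lie apart, with an SD of 0.49 on the log2 scale over 5435 genes. It leaves out variation between cultures and animals.

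Facts of both arrays stand beside every result. The labels held at the level of markers: Acp5, Ctsk and Mmp9, genes of bone resorption, differed by 6.72, 6.53 and 8.61, and all 10 osteoclast markers were at least 2-fold higher in osteoclasts. Of 10 macrophage markers, 6 were at least 2-fold lower in osteoclasts and 4 were not, and their summed signal was 22742 in osteoclasts and 43594 in macrophages. Sex-linked RNAs set the arrays apart. Xist, an RNA of female cells, had signals of 22.1 in osteoclasts and 1872 in macrophages, and the Y-linked gene Eif2s3y had 321 in osteoclasts and 0.571, below the floor, in macrophages. Treatment and animal therefore cannot be told apart. Granulocyte markers were higher in osteoclasts, 8 of 9 by at least 2-fold relative to the shift and 5 as deposited, with a summed signal of 6092 in osteoclasts and 3241 in macrophages and with Elane and Ctsg below the floor in macrophages. Stromal markers summed to 9686 in osteoclasts and 16839 in macrophages, with Lum below the floor in both arrays and Dcn in macrophages. Of 9 measured stromal markers, 2 (Col3a1 and Dcn) were at least 2-fold higher in osteoclasts relative to the shift and 0 were lower. As deposited, 1 was at least 2-fold higher and 3 were lower. Dendritic cell markers summed to 111 in osteoclasts and 196 in macrophages, with Ccr7 and Itgae below the floor in both. Markers of B lymphocytes, of T and NK lymphocytes and of megakaryocytes summed to 49.5, 49.1 and 231 in osteoclasts, against 119, 66.2 and 235 in macrophages, with Cd79a, Ms4a1, Cd3e, Cd3d and Ncr1 below the floor in both. The megakaryocyte markers went both ways. Vwf had 95.5 in osteoclasts and 13.9, below the floor, in macrophages, and Treml1 had 15.6 in osteoclasts and 71.2 in macrophages. The part of these cells in the complement values was not tested.

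Every probe set of the C1q chain genes lay far above the floor in both arrays and was lower in osteoclasts. C1qa, which encodes the A chain, had a signal of 1227 in osteoclasts, against 6897 in macrophages. C1qc, which encodes the C chain, had 1281 in osteoclasts, against 7557 in macrophages. Both genes were read from a single probe set each, and their differences were close to each other, at -2.06 for C1qa and -2.13 for C1qc. Relative to the shift these are signals 4.16-fold and 4.37-fold lower in osteoclasts. As deposited, the osteoclast signal was 17.8% of the macrophage signal for C1qa and 17.0% for C1qc.

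C1qb, which encodes the B chain, had 3 probe sets. The brightest had signals of 1958 in osteoclasts and 8799 in macrophages, a difference of -1.74. The other two gave 1776 in osteoclasts against 6141 in macrophages (-1.36), and 989 in osteoclasts against 5786 in macrophages (-2.12). Both of these carry the suffix by which Affymetrix marks sets with probes that may match other transcripts. All 3 were at least 2-fold lower in osteoclasts, and their spread, an SD of 0.38, was inside that of other genes' probe sets. Over the A, B and C chains, the 5 probe sets ran from -2.13 to -1.36 with a median of -2.06 and an SD of 0.33, a spread below the 0.49 found between probe sets of 1 gene. In osteoclasts the signals of these sets were at least 68.7 times the floor.

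**Figure D1:**
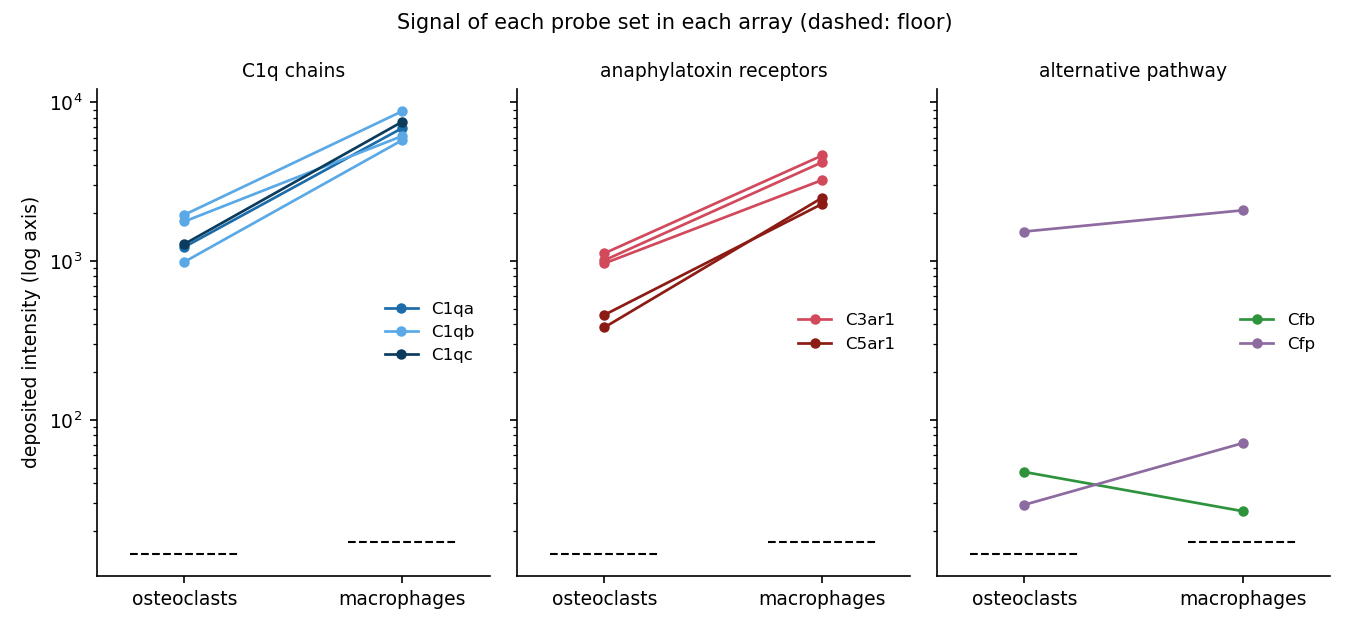
Deposited intensity (log axis) of each of the 13 probe sets in the osteoclast and the macrophage array, 1 line per probe set, in panels for C1q chains, anaphylatoxin receptors and alternative pathway genes, with the floor of each array as a dashed line. All 10 lines of the first 2 panels are lower in osteoclasts, the brighter Cfp line is nearly level, and Cfb and the dimmer Cfp set lie close to the floor.

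The C1q genes are neighbours: in the RefSeq table of assembly GRCm38.p6 they stand in the order C1qb, C1qc, C1qa on chromosome 4, with 0 other genes between them. As these neighbours were lower together, the stretches before their starts are shown, from RefSeq (GRCm38.p6), running from 250 bases before to 50 bases after each gene's start. C1qa has no entry in the promoter table. Capitals mark matches to 6 motifs searched on both strands, which were GAGGAAGT (the ETS factor PU.1 of myeloid cells), TGCTGAC (part of the site of MAF factors), GAAA, any 2 bases and GAAA (interferon regulatory factors), GGGA, any 4 bases and CC (NF-kappaB), TGANTCA (AP-1) and CACGTG (E box). The C1qb window is chr4:136886151-136886450 and the C1qc window chr4:136892865-136893164, both on the minus strand.
C1qb: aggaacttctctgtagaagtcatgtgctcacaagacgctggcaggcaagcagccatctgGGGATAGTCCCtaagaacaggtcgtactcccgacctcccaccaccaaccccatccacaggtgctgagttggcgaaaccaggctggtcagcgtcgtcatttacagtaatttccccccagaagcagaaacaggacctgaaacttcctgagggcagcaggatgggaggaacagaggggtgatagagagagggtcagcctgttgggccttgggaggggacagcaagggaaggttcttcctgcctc
C1qc: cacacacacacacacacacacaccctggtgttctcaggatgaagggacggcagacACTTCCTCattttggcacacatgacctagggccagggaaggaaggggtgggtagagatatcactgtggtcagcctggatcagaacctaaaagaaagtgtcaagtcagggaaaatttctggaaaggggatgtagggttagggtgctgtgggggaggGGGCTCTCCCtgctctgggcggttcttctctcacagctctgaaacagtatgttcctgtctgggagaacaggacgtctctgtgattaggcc
The capitals in C1qb are 2 overlapping matches to the NF-kappaB motif, 1 on each strand, starting 191 and 190 bases before the gene start. C1qc held a PU.1 match on the opposite strand, starting 195 bases before the gene start, and an NF-kappaB match 40 bases before it. Among 32841 promoter windows of the same length, 3.20% held the PU.1 motif and 20.7% the NF-kappaB motif. Neither window held the MAF, interferon factor, AP-1 or E box letters. A match is a string of letters in this window and no measure of binding.

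The receptor genes were lower in osteoclasts to a similar extent. C3ar1, which encodes the receptor for C3a, had 3 probe sets, with signals of 1120, 1012 and 968 in osteoclasts, against 4634, 4203 and 3245 in macrophages. The differences were -1.62, -1.62 and -1.31, an SD of 0.18, and the brightest set was 3.06-fold lower in osteoclasts relative to the shift. C5ar1 encodes the receptor for C5a, a strong attractant of phagocytes. Its 2 probe sets had signals of 459 and 383 in osteoclasts, against 2298 and 2513 in macrophages. Every C3ar1 and C5ar1 probe set was thus dimmer in osteoclasts than in macrophages. The C5ar1 differences were -1.89 and -2.28, signals 3.71-fold and 4.86-fold lower in osteoclasts. The brightest C5ar1 and C3ar1 sets differed from each other by less than the 0.49 between probe sets. The other C5ar1 set, at -2.28, lay further than that from every C3ar1 set. All 10 probe sets of the C1q and receptor genes lay between -2.28 and -1.31, with an SD of 0.34, and all 10 passed 2-fold lower on the relative and the deposited scale, beside 7.48% and 18.4% of all measured single-symbol probe sets.

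The receptor windows are shown because C3ar1 was the only member apart from C1qb and C1qc whose window held a match, and C5ar1, with a like difference, held none. The C3ar1 window is chr6:122856108-122856407 and the C5ar1 window chr7:16259289-16259588, both on the minus strand of GRCm38.p6, from RefSeq.
C3ar1: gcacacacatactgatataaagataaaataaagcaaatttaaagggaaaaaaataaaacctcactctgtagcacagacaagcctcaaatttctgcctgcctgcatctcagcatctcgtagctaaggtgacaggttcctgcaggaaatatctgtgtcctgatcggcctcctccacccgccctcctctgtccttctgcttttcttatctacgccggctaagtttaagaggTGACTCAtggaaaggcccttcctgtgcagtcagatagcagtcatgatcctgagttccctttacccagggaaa
C5ar1: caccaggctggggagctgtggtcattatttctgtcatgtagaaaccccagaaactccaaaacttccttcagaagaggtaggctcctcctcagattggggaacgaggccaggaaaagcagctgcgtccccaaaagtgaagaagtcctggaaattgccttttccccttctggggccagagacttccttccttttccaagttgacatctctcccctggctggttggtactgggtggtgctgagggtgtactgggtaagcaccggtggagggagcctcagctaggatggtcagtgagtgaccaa
The C3ar1 capitals are TGACTCA, an AP-1 motif that reads the same on both strands, starting 22 bases before the gene start. That motif stood in 7.81% of the 32841 windows. The Cfp window held none of the 6 motifs, and Cfb has no entry in the table.

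The alternative pathway genes did not share this pattern. Cfp encodes properdin, the protein that stabilises the convertase of the alternative pathway. Its brighter probe set had signals of 1535 in osteoclasts and 2088 in macrophages, a difference of -0.01, which is within the spread of probe sets. As deposited the osteoclast signal was 73.5% of the macrophage one. A dim Cfp set had 29.2 in osteoclasts and 71.4 in macrophages (-0.85), and stood 2.03 times above the floor in osteoclasts and 4.19 times in macrophages. The Cfp sets were 0.84 apart, so the gene's difference rests on the bright one. Cfp lies on the X chromosome, and the arrays differ in Xist as given above. The part of this in the Cfp values was not tested.

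Cfb, which encodes factor B, the protease of the alternative pathway, was the 1 member with a higher signal in osteoclasts. Its only probe set had 47.0 in osteoclasts and 26.6 in macrophages, a difference of 1.25 relative to the shift and 0.82 as deposited. The macrophage signal was above the floor but under 28.2, the 95th percentile, in that array, of probe sets for olfactory and vomeronasal receptors, genes these cells are not known to use. With the macrophage signal raised to that level Cfb was 2.25-fold higher in osteoclasts relative to the shift, and 1.67-fold as deposited. Cfb thus passed 2-fold on 1 scale and not on the other.

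**Figure D2:**
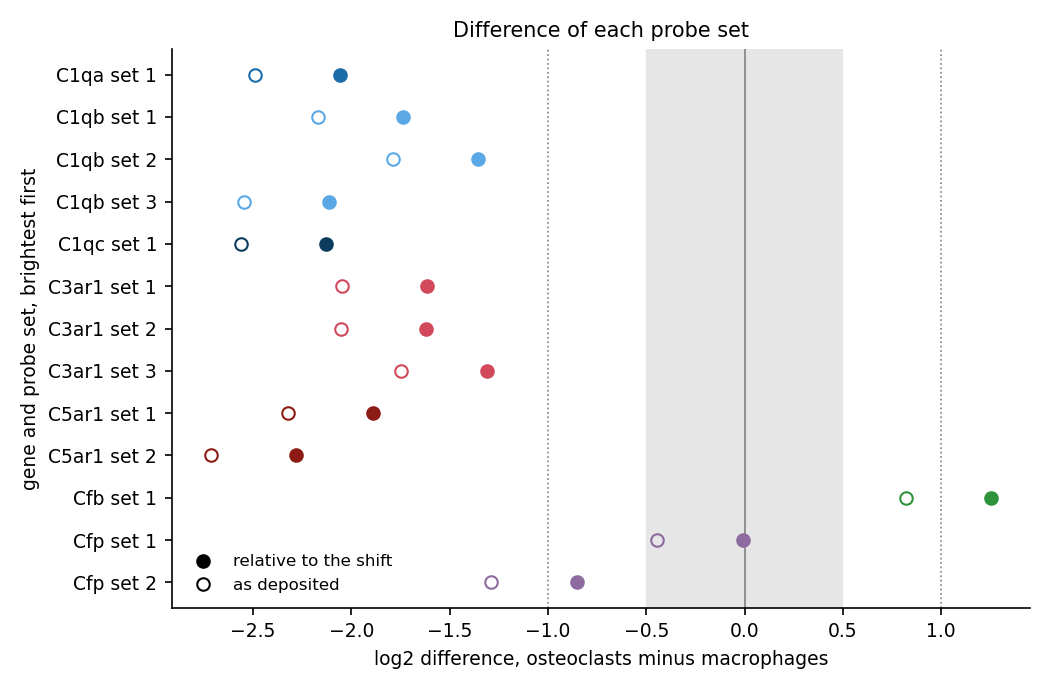
Log2 difference, osteoclasts minus macrophages, of each probe set, relative to the shift (filled) and as deposited (open), with the SD between probe sets of a gene (0.49) as a grey band and 2-fold as dotted lines. All C1q, C3ar1 and C5ar1 sets lie beyond 2-fold lower on both scales, the brighter Cfp set lies inside the band, and Cfb lies beyond 2-fold on the relative scale only.

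Counted by gene, with the probe set brightest over both arrays standing for each, 5 of 7 members were at least 2-fold lower in osteoclasts, 1 was at least 2-fold higher and 1 was neither. Of the 13647 genes measured in at least 1 array, 6.99% were at least 2-fold lower and 7.11% at least 2-fold higher. As deposited, 5 members were 2-fold lower and 0 higher, against 17.5% and 3% of all genes, and genes higher in osteoclasts made up 50.4% of all genes past 2-fold on the relative scale but 14.6% on the deposited one. At 4-fold, 2 members (C1qa and C1qc) were lower relative to the shift and 5 as deposited, where the shares of all genes were 0.923% and 2.13%. The count of 2 depends on the choice of probe set. Another C5ar1 set was 4.86-fold and another C1qb set 4.33-fold lower in osteoclasts relative to the shift. The members' median difference was -1.74 (-2.17 as deposited), and that of all measured genes 0.00 (-0.43 as deposited). The list was put together with these differences known, so its counts are a description.

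Placed among the 11469 genes measured in both arrays and ordered from the most negative difference, C1qc was at place 85, C1qa at 103, C5ar1 at 135, C1qb at 185 and C3ar1 at 232. Cfp stood at the middle, with 50.4% of genes more negative, and Cfb towards the other end, with 96.3%. Split into 5 bins of mean signal, these genes were at least 2-fold lower in 5.71% to 8.63% of cases. The brightest bin held 6 members, with 6.71% of its genes at least 2-fold lower and 1.22% at least 4-fold lower, and the dimmest bin held Cfb, where 7.15% were at least 2-fold higher.

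**Figure D3:**
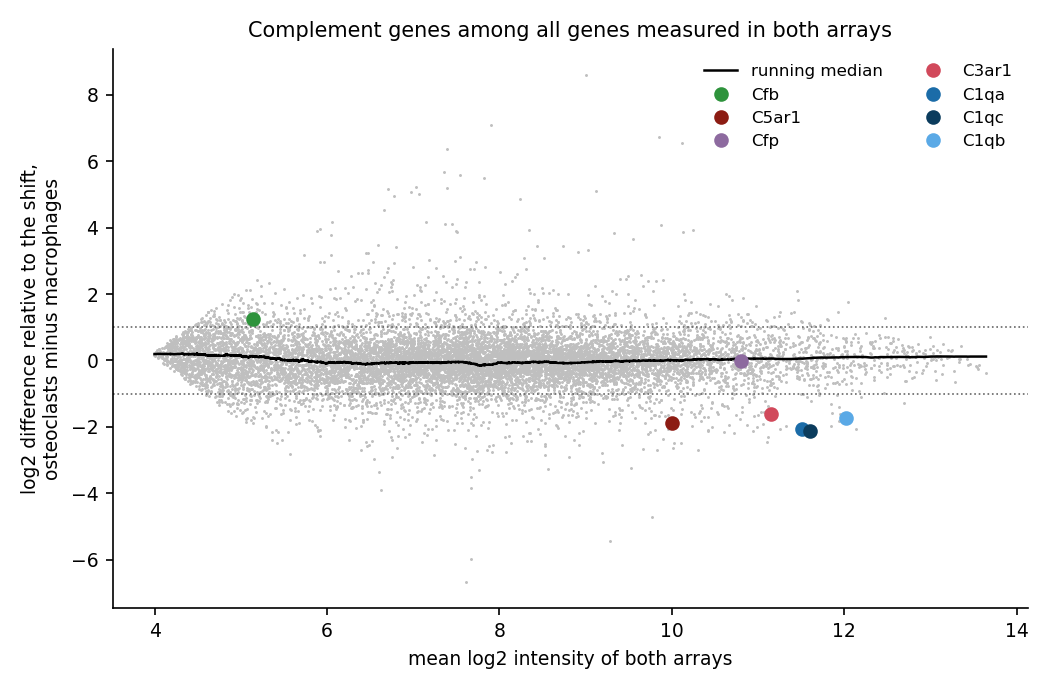
Log2 difference relative to the shift, osteoclasts minus macrophages, against the mean log2 intensity of both arrays, for the 11469 genes measured in both (grey), with the running median (line), 2-fold (dotted) and the 7 complement genes in colour. The 5 C1q and receptor genes lie near the lower edge of the bright genes, Cfp lies on the running median and Cfb among the dim genes.

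With 2 arrays a gene's pattern is a single difference, so likeness was taken as the smallest gap in that difference among genes in the same of 20 bins of mean signal (573 genes for C1qa). Nearest to C1qa were Cd36, a scavenger receptor gene (-2.07), and Gclm (-2.07), a subunit gene of glutathione synthesis. Dab2, an endocytic adaptor gene (-2.15), and Gclm were nearest to C1qc, and Selenop (-1.81), which encodes a selenium carrier, and Mgst1 (-1.63) to C1qb. Nearest to C3ar1 were Adam8, a membrane protease gene (-1.62), and Mgst1. Stab1, a scavenger receptor gene (-1.88), and Slc43a2 (-1.82) were nearest to C5ar1. Fhod3 (1.25) and Cadps (1.26) were nearest to Cfb, and Jtb (-0.01) and Stk17b (-0.01) to Cfp. Like Cfb, Fhod3 (25.7) and Cadps (23.7) had macrophage signals under 28.2, the receptors' 95th percentile, so their likeness is one of dim signals.

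Among the macrophage markers the C1q differences were like those of some and unlike others. Of the 10 markers, 6 were at least 2-fold lower in osteoclasts and 4 were not, with Fcgr1 lowest at -2.91. Not all of them are given here. Adgre1, which encodes the F4/80 antigen, had 1107 in osteoclasts and 5919 in macrophages (-1.99), and Mertk, a receptor for dying cells, had 143 in osteoclasts and 706 in macrophages (-1.87). Csf1r, the M-CSF receptor gene, had 6005 in osteoclasts and 9899 in macrophages (-0.29), and the lysosomal marker Cd68 had 5850 in osteoclasts and 7724 in macrophages (0.03). In such bulk RNA, fewer cells of a type and less RNA per cell cannot be told apart.

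The other genes of complement were read in lists by role, 53 genes in all. Of these 42 had a probe set with a single symbol, 23 were measured in at least 1 array and 11 are not analysed here. Relative to the shift 3 of the 23 were at least 2-fold lower in osteoclasts and 1 higher, beside 6.99% and 7.11% of all genes, and as deposited 6 were lower and 1 higher, beside 17.5% and 3% of all genes. The 3 lower genes include Fcnb, which was below the floor in osteoclasts and is under 2-fold by the more cautious bound given below. Their median difference was -0.07 (-0.50 as deposited). Most complement genes outside the C1q and receptor group therefore differed by less than 2-fold or were not measured.

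Recognition proteins and proteases of the classical and lectin pathways differed in both directions. Fcna, which encodes ficolin A, a lectin pathway recognition protein, had 273 in osteoclasts and 87.2 in macrophages (2.08), the opposite direction to C1q. Fcnb, the gene of ficolin B, was below the floor in osteoclasts, with 6.09, against 57.0 in macrophages, at least 1.64-fold lower with the dim signal raised to 25.7, the 95th percentile of receptor probe sets in the osteoclast array. Masp1, a lectin pathway protease gene, had 50.1 in osteoclasts and 183 in macrophages (-1.44). Its probe sets disagreed: the others gave -1.27, -0.37 and, for a set measured in osteoclasts only, 0.64, and 1 set was below the floor in both arrays. C1ra, the gene of the protease that C1q carries, was dim in both, with 29.2 in osteoclasts and 43.5 in macrophages (-0.14). C1s1 and C2, also of the classical pathway, were below the floor in both arrays.

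All 6 terminal component genes with a probe set, Hc (which encodes C5), C6, C8a, C8b, C8g and C9, were below the floor in both arrays. Their summed signal was 27.8 in osteoclasts and 34.8 in macrophages. These are genes of proteins made mainly by the liver.

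Of the regulators, 4 soluble and 4 membrane genes were measured and none differed by 2-fold on either scale. Of all genes, 6.99% were at least 2-fold lower and 7.11% higher relative to the shift, and 17.5% and 3% as deposited. With so few regulators, a count of none is near these shares and is no result about regulators. Serping1, the gene of the C1 inhibitor, had the largest difference among the regulators, with 48.8 in osteoclasts and 35.0 in macrophages (0.91). Dim signals limit the count as well. Vtn (15.2 in osteoclasts and 17.3 in macrophages) and Cd55 (15.0 and 17.2) were below the receptors' 95th percentile in both arrays. So was Cfi (5.87 and 18.6), which was also below the floor in osteoclasts. The differences of Vtn, Cd55 and Cfi are not resolved from background. Clu, the gene of clusterin, had 29.8 in osteoclasts and 34.7 in macrophages (0.21), with its dimmer probe sets reaching 1.02. On the membrane, Cr1l, which encodes the rodent regulator Crry, had 589 in osteoclasts and 835 in macrophages (-0.07), with its other measured probe set at 0.99, and Cd59a, an inhibitor of the membrane attack complex, had 248 in osteoclasts and 399 in macrophages (-0.25).

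Of 9 measured receptors and binding partners, 1 passed 2-fold lower on the relative scale and 4 did as deposited, beside 6.99% and 17.5% of all genes. The 1 was Cd93, whose protein was first described as a C1q receptor and which had 716 in osteoclasts and 3682 in macrophages (-1.93). The 3 dimmer Cd93 sets measured in both arrays gave -1.75, -1.57 and -1.04. A further Cd93 set was below the floor in osteoclasts, with 2.61, against 19.1 in macrophages. Itgam and Itgb2, the chains of complement receptor 3, differed by -0.91 (500 in osteoclasts and 1269 in macrophages) and -0.29 (3013 in osteoclasts and 4973 in macrophages). Vsig4, the complement receptor gene of tissue macrophages, had 42.7 in osteoclasts and 97.1 in macrophages (-0.75). C1qbp, a mitochondrial protein gene named for C1q binding, had 4506 in osteoclasts and 4162 in macrophages (0.55), and Calr, the gene of the C1q-binding chaperone calreticulin, had 3748 in osteoclasts and 6410 in macrophages (-0.34).

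**Figure D4:**
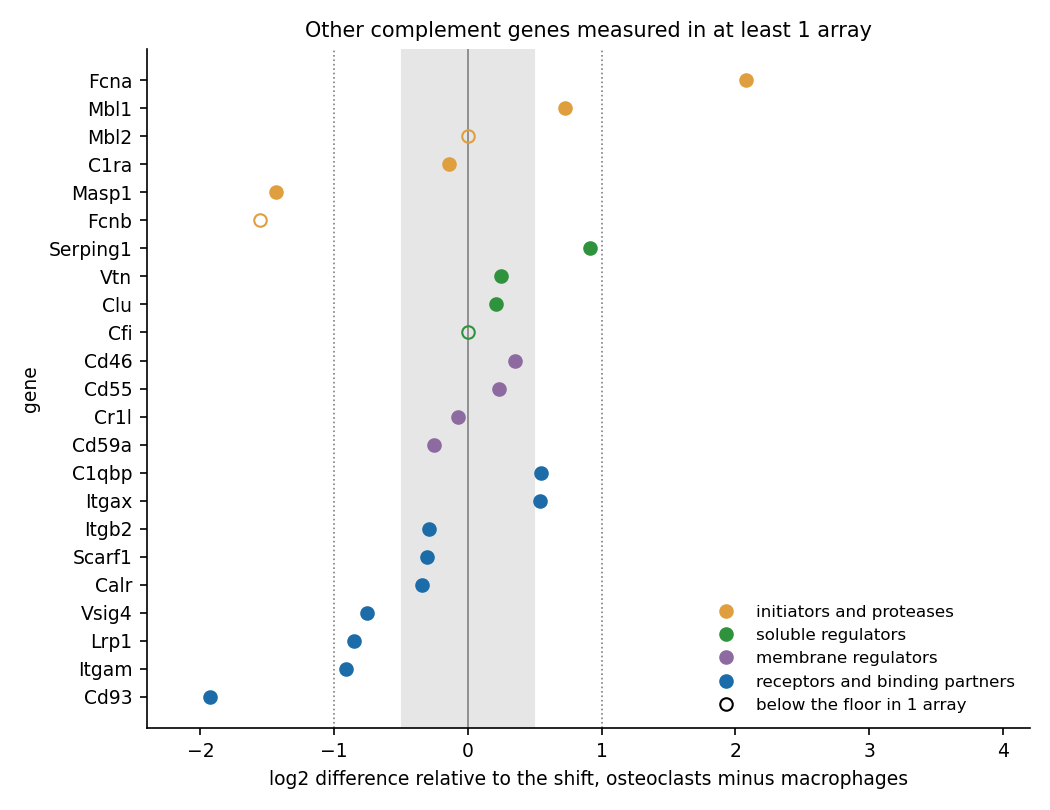
Log2 difference relative to the shift, osteoclasts minus macrophages, of the 23 other complement genes measured in at least 1 array, coloured by role, with the SD between probe sets (0.49) as a grey band and 2-fold as dotted lines, and open points for genes below the floor in 1 array. Fcna lies beyond 2-fold higher and Cd93 and Masp1 beyond 2-fold lower. Fcnb is drawn beyond 2-fold lower with its osteoclast signal at the floor, though its more cautious bound is 1.64-fold, and the other 19 lie between.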

How the data were processed

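Per the labels' protocols, 1 µg of total RNA from each culture was labelled with biotin (Affymetrix one-cycle method). For both arrays the authors deposited linear intensities of 45101 probe sets. How probes were condensed, corrected for background and scaled: not given in the sources used here. The 64 control probe sets were left out. Gene names came from the platform annotation, which can be old; 34945 probe sets had 1 symbol. Log2 differences, the shift, the floor and the 2-fold counts were computed with Python 3.11.15, pandas 2.3.3 and numpy 2.4.6. The steps were tested on simulated data in which only bright genes were changed, with noise smaller than the probe set SD of 0.49. Differences of dim genes were therefore not tested. Values below the floor were raised to it. Where 1 array was below the floor, a relative difference that the shift would have moved to the other side was set to 0. Mbl2 and Cfi stand at 0 for this reason, not as a measured difference. At this floor 15% of 80 receptor probe sets counted as measured in osteoclasts and 20% in macrophages. Genes were named by rule: all members, up to 4 per direction of each pathway list past 2-fold or otherwise its 2 brightest, the 2 nearest genes of each member, and label checks; further pathway, marker and sex-linked genes were named after their values were seen. Members and lists were chosen with earlier results of these data known. Alternatives covered scaling, floor, offset and choice of probe set.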

Additional observations from a re-analysis of the deposited data

How the results depend on the processing

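Under 7 alternatives (deposited values, quantile normalization, a running median shift, a floor at the receptors' 95th percentile, no floor, an offset of 16 before log2, and the median over probe sets), the 49 recomputed member differences moved by less than the probe set SD of 0.49. For part of the 49 this was fixed in advance. The deposited scale changes each member by the shift of -0.43. The median over probe sets is the main value itself for C1qa, C1qb, C1qc, C3ar1 and Cfb. With no floor, each member, being above the floor in both arrays, moves only by the change in the shift. The same holds with the receptors' floor for each member except Cfb. C1qa ran from -2.49 to -2.04, C1qb from -2.17 to -1.72, C1qc from -2.56 to -2.11, C3ar1 from -2.05 to -1.60, C5ar1 from -2.32 to -1.87, Cfb from 0.82 to 1.25 and Cfp from -0.44 to 0.01. The 5 members at least 2-fold lower stayed 5 in each. Members at least 2-fold higher were 0 as deposited and 0 with the offset, against 1, since Cfb then differed by 0.82 and 0.92. Other complement genes at least 2-fold lower were 6 as deposited, 7 with no floor and 2 with the receptors' floor, with the offset and with the median over probe sets, against 3, and those at least 2-fold higher were 5 with no floor, against 1; with no floor, signals in the range of background are compared. No paired analysis was possible because each group has 1 array. Signal over background limits Cfb, the dim Cfp set and most other complement genes, not C1q, C3ar1 or C5ar1.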
